A study of Drosophila melanogaster with 2 samples.

Results

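The nuclear tRNA genes of Drosophila melanogaster were examined for binding of shuttle craft (stc), a zinc finger protein of the NFX1 type. All genes of biotype tRNA on the main chromosome arms of the Ensembl annotation were taken, which gave 290 of 23973 genes. They are 71 to 186 bp long with a median of 73 bp, carry 22 amino acid labels (the initiator methionine, iMet, and selenocysteine, SeC, each counted apart) and fall into 45 combinations of amino acid and anticodon. A further 5 tRNA pseudogenes were left out. The data are chromatin immunoprecipitation and sequencing (ChIP-seq) of whole embryos aged 0 to 24 h from a strain with an eGFP-tagged stc, made with an antibody to GFP, as 2 biological replicates of 1 group. A peak in such data cannot tell binding in a few cells of the embryo from weaker binding in many. No control was analysed here, so a peak may also be background, and the depth of the libraries is unknown.

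A tRNA carries an amino acid to the ribosome and reads the matching codon through its anticodon. Its gene is transcribed by RNA polymerase III from a promoter that lies inside the gene, made of an A box and a B box. The factor TFIIIC binds these boxes and places TFIIIB just upstream, which recruits the polymerase. Many tRNA genes exist in identical copies, often close together, so short reads from the gene itself can match several places. Of the 290 genes, 238 share their full sequence with at least 1 other, and there are 95 distinct sequences. The sources used here do not say how such reads were placed, so a peak over a gene with copies has an uncertain origin.

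The first 3 sequences below run from the gene to the summit of its peak in the conservative list, the list the authors kept between the replicates, and they show how far the summit lay from the gene. Each reads 5′ to 3′ along the tRNA gene's strand from the RefSeq Release 6 assembly (dm6), with the tRNA gene in capitals and the summit at the outer end of the lower-case letters. They are tRNA:Tyr-GTA-1-8 (chr3R:8669081-8669377, minus strand), with the summit 203 bp upstream of the transcription start site (TSS, here the first base of the gene), tRNA:Leu-TAA-2-1 (chr3R:24112820-24113047, plus strand), with the summit 144 bp upstream, and tRNA:Ala-AGC-2-11 (chr3R:19790972-19791124, plus strand), with the summit 152 bp downstream of the start and past the end of the gene.
tRNA:Tyr-GTA-1-8: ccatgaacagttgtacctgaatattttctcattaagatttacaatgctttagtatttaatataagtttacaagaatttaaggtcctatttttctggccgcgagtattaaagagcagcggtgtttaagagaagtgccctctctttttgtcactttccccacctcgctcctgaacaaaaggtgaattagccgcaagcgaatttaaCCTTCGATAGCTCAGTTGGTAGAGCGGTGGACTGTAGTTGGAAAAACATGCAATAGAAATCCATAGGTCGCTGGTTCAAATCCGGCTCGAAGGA
tRNA:Leu-TAA-2-1: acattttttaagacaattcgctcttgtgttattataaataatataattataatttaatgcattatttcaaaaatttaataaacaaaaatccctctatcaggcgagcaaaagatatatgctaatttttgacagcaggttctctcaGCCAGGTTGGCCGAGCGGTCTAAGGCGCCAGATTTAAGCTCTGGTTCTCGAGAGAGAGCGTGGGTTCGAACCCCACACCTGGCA
tRNA:Ala-AGC-2-11: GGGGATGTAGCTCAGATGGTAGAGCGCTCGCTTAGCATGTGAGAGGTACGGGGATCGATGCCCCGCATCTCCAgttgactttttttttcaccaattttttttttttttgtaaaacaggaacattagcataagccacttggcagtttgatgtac

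The next 4 sequences are tRNA genes alone, with the B box and, where it was found, a narrow form of the A box in capitals. They are tRNA:Ser-AGA-2-4 (chr2L:3173003-3173084), which after tRNA:Tyr-GTA-1-8 had the highest signal in the replicate 2 list, tRNA:Asp-GTC-1-4 (chr2L:8541552-8541623), 1 of 12 identical genes, and a pair of glutamine genes, tRNA:Gln-TTG-1-2 (chr3R:26947263-26947334) and tRNA:Gln-TTG-2-1 (chrX:3427452-3427523). All 4 lie on the minus strand and read 5′ to 3′ along it. The glutamine genes differ at 1 base, T16C from tRNA:Gln-TTG-1-2 to tRNA:Gln-TTG-2-1, counted from 1 at the 5′ end of the gene, and the base lies outside the B box.
tRNA:Ser-AGA-2-4: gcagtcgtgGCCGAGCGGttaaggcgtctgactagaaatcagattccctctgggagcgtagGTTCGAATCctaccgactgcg
tRNA:Asp-GTC-1-4: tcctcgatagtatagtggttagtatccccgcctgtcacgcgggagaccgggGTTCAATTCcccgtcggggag
tRNA:Gln-TTG-1-2: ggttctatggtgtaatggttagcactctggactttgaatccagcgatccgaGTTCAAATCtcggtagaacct
tRNA:Gln-TTG-2-1: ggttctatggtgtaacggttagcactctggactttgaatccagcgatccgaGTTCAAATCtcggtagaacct

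The B box was searched as GTTCGANNC or GTTCAANNC and the A box as GCNNAGNGG, on both strands, with N standing for any base. A B box letter match was present in 271 of the 290 tRNA genes (93.4%), in 38 of the 41 genes bound in the replicate 2 list and in 10 of the 11 bound in the conservative list. The A box letters, which are stricter than the natural box, were present in 68 genes (23.4%). In a window of equal length, the first 73 bases from the start, a B box match was found in 87.6% of tRNA genes and in 1.34% of 19847 other genes with a single TSS. The identical alanine genes of the AGC-2 kind, such as tRNA:Ala-AGC-2-11 above, hold no match to either form and were bound in 3 copies in the replicate 2 list. A B box match was thus about as frequent in bound tRNA genes as in all of them.

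A gene was called bound when the summit of a peak lay within 250 bp of its TSS. There are 4 lists of thresholded peaks: the conservative list, a larger list, and 1 list from each replicate, with 3831, 5084, 2782 and 3806 peaks in that order. The count of bound tRNA genes depended on the list. In replicate 1, 2 of 290 tRNA genes were bound (0.690%, exact 95% interval 0.0836 to 2.47), while 5.07% of all 23973 genes were. In replicate 2, 41 were bound (14.1%, 10.3 to 18.7), while 6.99% of all genes were. The share of tRNA genes lay below that of all genes in replicate 1 and above it in replicate 2, and the share of all genes was outside both intervals.

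The lists of the whole series fell between these. In the conservative list 11 tRNA genes were bound (3.79%, 1.91 to 6.69), next to 6.49% of all genes, a share inside the interval. In the larger list 33 were bound (11.4%, 7.96 to 15.6), next to 8.56% of all genes, also inside the interval. All these intervals are Clopper-Pearson intervals over genes and describe counting error. They treat genes as independent, while neighbouring tRNA genes often share a peak, so they are too narrow: the 41 genes of replicate 2 came from 26 peaks, the 33 of the larger list from 22, and the 11 of the conservative list from 9.

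**Figure D1:**
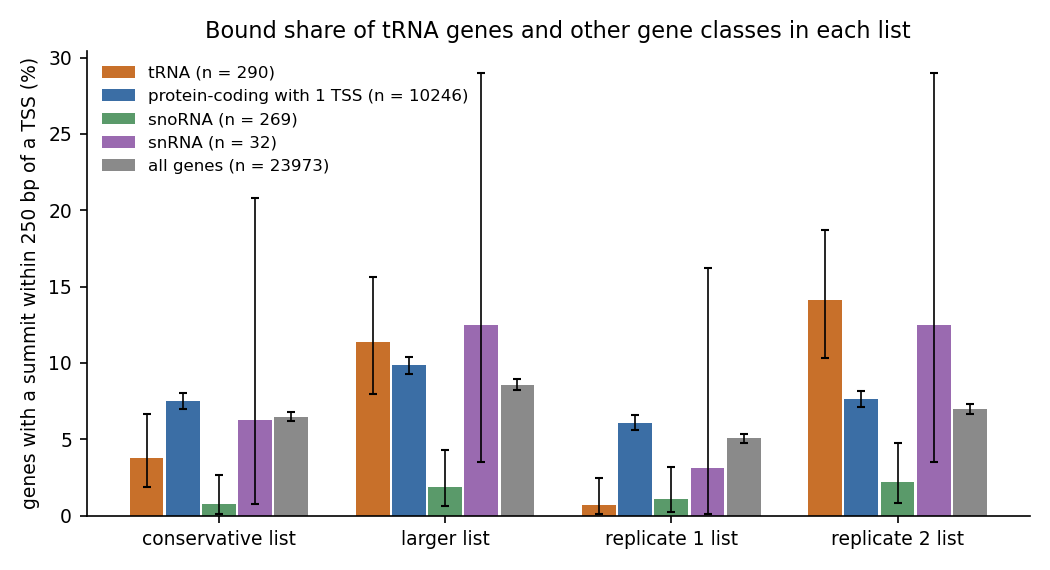
Share of genes with a summit within 250 bp of a TSS (%) in each of the 4 thresholded lists, for tRNA genes and 4 other sets of genes. Bars are shares and lines are exact 95% intervals over genes. The tRNA bar is 0.690% in the replicate 1 list and 14.1% in the replicate 2 list.

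Other classes of genes showed a smaller gap between the replicates. Among 10246 protein-coding genes with a single TSS, 6.10% were bound in the replicate 1 list and 7.63% in the replicate 2 list. The 269 small nucleolar RNA (snoRNA) genes, which are short like tRNA genes, gave 1.12% and 2.23%. The 32 small nuclear RNA genes, most of them transcribed by RNA polymerase II, gave 3.12% and 12.5%, which is 1 and 4 genes. The 103 other genes of RNA polymerase III, nearly all 5S rRNA and U6 genes, included 1 bound gene in the larger list, RNaseMRP:RNA with a signal of 86.8, and none in the other 3 lists. A ranked peak of any strength was near 4 of the 103 in replicate 1 and 5 in replicate 2. Why so few had one was not tested, and the lack of thresholded peaks there is not read as absence of binding.

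A total of 48 tRNA genes were bound in at least 1 list and 242 in none. The single gene in all 4 was tRNA:Tyr-GTA-1-8. The conservative and larger lists shared 7 genes, which is 63.6% of the 11 and 21.2% of the 33. The larger and replicate 2 lists shared 28, which is 84.8% of the 33 and 68.3% of the 41. The most frequent pattern, in 23 genes, was to be bound in the larger and replicate 2 lists and in neither of the others, and 11 more were bound in the replicate 2 list alone. These lists come from the same 2 libraries, so their overlap is not independent evidence of binding.

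The gap between replicates was already present in the ranked lists, which hold 104070 peaks in replicate 1 and 94143 in replicate 2 before the threshold. A ranked summit lay within 250 bp of 93 tRNA genes in replicate 1 (32.1%, next to 41.4% of all genes) and of 212 in replicate 2 (73.1%, next to 44.6% of all genes). Some other classes also rose from replicate 1 to replicate 2, though by less. The shares were 35.7% and 54.3% of snoRNA genes and 31.2% and 56.2% of small nuclear RNA genes. For protein-coding genes with a single TSS they were 44.1% and 52.4%. Genes labelled non-coding RNA (ncRNA) went the other way, at 43.9% and 38.6%. Among the tRNA genes, a ranked peak was present in both replicates for 71 genes, 141 genes had one only in replicate 2, 22 had one only in replicate 1, and 56 genes had none. Among the 41 genes bound in the replicate 2 list, 17 had a ranked peak in replicate 1 and 24 had none.

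The ranks differed in the same way. The signal, a value of the authors' peak caller whose scale is not given, had at tRNA genes a median of 14.9 in replicate 1 (lowest 3.63, highest 212) and of 31.8 in replicate 2 (lowest 2.08, highest 373). The median tRNA peak stood at 42.7% of the way down the ranked list of replicate 1 and at 10.9% in replicate 2. For peaks at protein-coding genes these places were 23.5% and 16.2%, and for snoRNA genes 42.0% and 42.1%. The top 10% of the ranked peaks held a peak for 10 tRNA genes (3.45%) in replicate 1 and for 97 (33.4%) in replicate 2. For protein-coding genes it did so for 17.4% and 23.0%.

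Among the 71 tRNA genes with a ranked peak in both replicates, 62 (87.3%) had the higher signal in replicate 2, and the median ratio of replicate 2 to replicate 1 was 2.22. For 5635 protein-coding genes the same share was 66.4% and the median ratio 1.26. Spearman's rho between the replicates was 0.362 across the tRNA genes and 0.624 across the protein-coding genes. These are correlations across genes of 2 libraries, and they carry no test. With 1 library on each side, what sets the tRNA genes of replicate 2 apart was not tested.

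**Figure D2:**
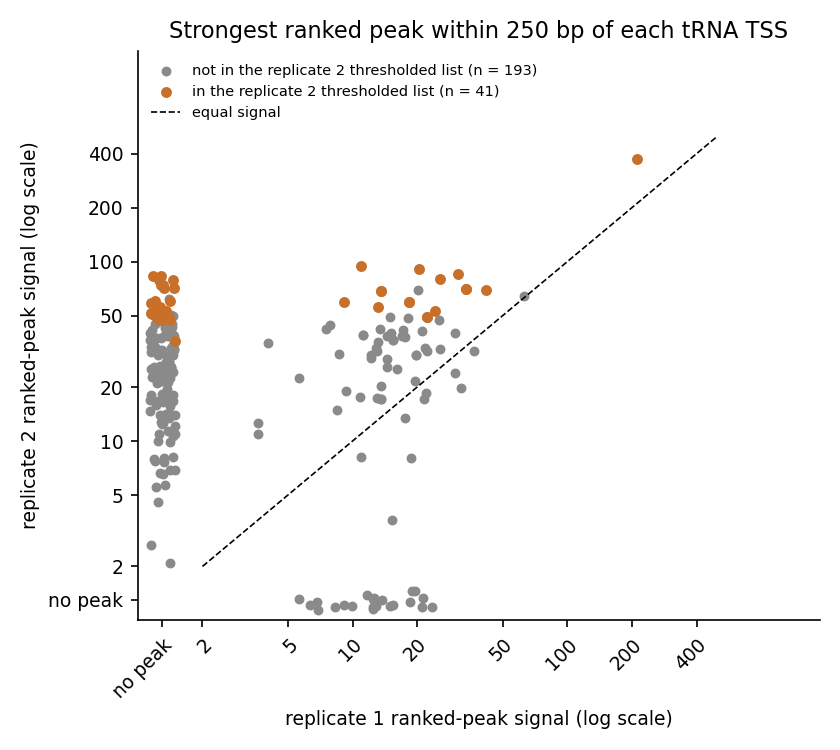
Signal of the strongest ranked peak within 250 bp of each tRNA TSS, replicate 1 against replicate 2, both on log scales, with genes lacking a ranked peak placed at the mark "no peak" with small random shifts. Points are genes, orange when bound in the replicate 2 thresholded list (41), and the 56 genes with no peak in either replicate are not drawn. The point at the top right is tRNA:Tyr-GTA-1-8, at 212 and 373.

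Summits of replicate 2 gathered at the tRNA genes themselves. Within 100 bp of a tRNA TSS there were 2.32 ranked summits per kb in replicate 2, then 1.18 at 100 to 250 bp, 0.778 at 250 to 500 bp and 1.000 at 2000 to 5000 bp, with a genome-wide value of 0.701. In replicate 1 the same distances gave 0.763, 0.646, 0.962 and 0.922, with a genome-wide value of 0.771. In the thresholded lists, summits within 100 bp stood at 0.381 per kb in replicate 2 (22 summits, genome 0.0284) and at 0.0173 in replicate 1 (1 summit, genome 0.0207). The peak of the profile was centred on the start of the gene in replicate 2, and no such rise was seen in replicate 1.

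**Figure D3:**
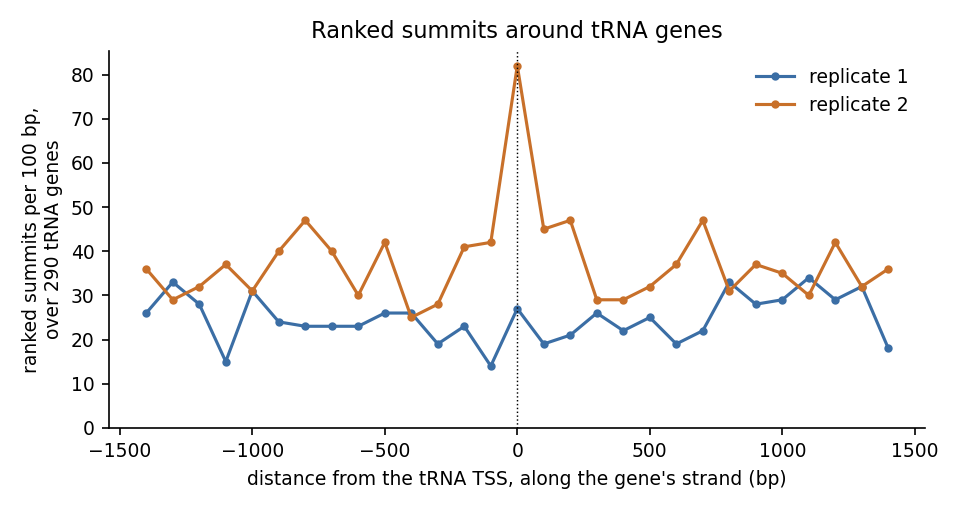
Number of ranked summits per 100 bp over all 290 tRNA genes, by distance from the tRNA TSS along the gene's strand (bp), for each replicate. The bin centred on the start holds 82 summits in replicate 2 and 27 in replicate 1.

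The summits lay on either side of the start. In the replicate 2 list 26 of 41 genes had the summit upstream of the TSS and 15 downstream, with a median of -53 bp. In the larger list 21 of 33 were upstream, with a median of -35 bp, and in the conservative list 8 of 11, with a median of -82 bp. The summit of the strongest peak fell inside the gene itself in 7 of 41, 7 of 33 and 1 of 11 genes. Within 50 bp of the 26 summits of replicate 2, the GTTCGANNC form was found at 5 (19.2%, next to 1.16% of all 3806 peaks), the GTTCAANNC form at 4 (15.4%, next to 1.16%) and the A box letters at 4 (15.4%, next to 3.18%). Since the windows were chosen for lying near tRNA genes, which carry these letters, the shares describe position only. The DRE (TATCGATA), the Motif 1 core (GGTCACAC) and the GAGA repeat (GAGAGAG) are promoter elements of genes of RNA polymerase II. They were at 0 of the 26, next to 0.893%, 0.709% and 2.94% of all peaks. The E-box (CACGTG) was at 1 (3.85%, next to 1.05%). With shares this low, 26 summits are too few to show whether these letters are rarer or more frequent there.

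The window decided a few calls. In the replicate 2 list the outermost gene inside it was tRNA:Ala-AGC-2-2, with a summit at 249 bp and a signal of 59.5, and the nearest outside were tRNA:Phe-GAA-1-2 at 256 bp with 122 and tRNA:Trp-CCA-2-2 at 258 bp with 52.0. In the conservative list tRNA:Gln-TTG-2-1 was inside at 240 bp with 116, and tRNA:Phe-GAA-1-2 was outside at 260 bp with 245. In the replicate 1 list, where 2 genes were bound, the 2 genes just outside in replicate 2 again lay beyond the window, tRNA:Trp-CCA-2-2 at 251 bp with 52.2 and tRNA:Phe-GAA-1-2 at 259 bp with 118. The TSS of this phenylalanine gene is 305 bp from that of RpL17, a ribosomal protein gene.

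The 11 tRNA genes of the conservative list were led by tRNA:Tyr-GTA-1-8, a tyrosine tRNA gene on chromosome 3R (8669081 to 8669174) within introns of CG8036, on the opposite strand, and of p, on the same strand. Its peak had a signal of 585 and ranked 123 of 3831. The input peaks had signals of 212 in replicate 1 and 373 in replicate 2, and ranked 214 and 80 in the replicates' own lists. The summit was 203 bp upstream of the tRNA start and 241 bp from the nearest TSS of CG8036, so the nearer start was the tRNA's by a small margin.

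The other conservative peaks were weaker and lower in the list. The peak at tRNA:His-GTG-1-3, a histidine gene, had a signal of 147, rank 1549 and input signals of 63.1 in replicate 1 and 64.6 in replicate 2. It was the other gene bound in the replicate 1 list, and its summit was 82 bp upstream and 168 bp from a TSS of CG8490. The peak at tRNA:Leu-TAA-2-1, a leucine gene, had a signal of 134, with inputs of 31.0 and 84.8, and that at tRNA:Gln-TTG-2-1, a glutamine gene in an intron of CG12535, a signal of 116, with inputs of 42.0 and 69.8. A peak of signal 98.3, with inputs of 33.7 and 70.1, lay between tRNA:Phe-GAA-1-4 and tRNA:Phe-GAA-1-5, a head-to-head pair of phenylalanine genes whose starts are 5000 and 5164 bp from a protein-coding TSS. The replicate 2 input was the higher of the pair at each of these peaks, though at the histidine gene the pair was nearly equal.

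The last 4 of these peaks ranked 3583 or lower among 3831. The peak at tRNA:Ala-AGC-2-11, an alanine gene, had a signal of 69.0, with inputs of 31.8 and 43.9. The peaks at tRNA:Trp-CCA-2-2 (signal 47.2) and tRNA:Gly-GCC-1-9 (signal 11.0), a tryptophan and a glycine gene side by side, list the same pair of input peaks, 52.2 and 39.0. They are thus 2 entries made from 1 peak of each replicate. The peak at tRNA:Gly-GCC-1-13 and tRNA:Trp-CCA-2-6 had a signal of 43.8, with inputs of 45.8 and 48.7. The 4 genes of the last 3 peaks were the conservative genes absent from the larger list.

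In the replicate 2 list the 41 genes had signals from 36.0 to 373, with a median of 59.5. After tRNA:Tyr-GTA-1-8 came tRNA:Ser-AGA-2-4 with 94.2, tRNA:Gly-GCC-1-3 with 90.8, tRNA:Leu-TAA-2-1 with 84.8, the pair tRNA:Arg-ACG-1-4 and tRNA:Lys-CTT-1-5 with 83.6, and tRNA:Ala-AGC-2-1 with 79.8. A peak of 79.4 was shared by tRNA:Pro-AGG-1-3 and tRNA:Pro-AGG-1-4, and 1 of 74.4 by tRNA:Ser-CGA-1-4 and tRNA:Val-AAC-2-1. Apart from the tyrosine gene, the values between neighbours in this order differed by a few units, and no error is available for them within 1 library.

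The larger list, which shared 28 of its 33 genes with the replicate 2 list, was led by the conservative genes. After tRNA:Tyr-GTA-1-8 (585), tRNA:His-GTG-1-3 (147), tRNA:Leu-TAA-2-1 (134) and tRNA:Gln-TTG-2-1 (116) came the pair tRNA:Arg-ACG-1-4 and tRNA:Lys-CTT-1-5 with 115, tRNA:Ala-AGC-2-1 with 113, tRNA:Ser-AGA-2-4 with 109 and tRNA:Gly-GCC-1-3 with 108. The pair tRNA:Asp-GTC-1-4 and tRNA:Asp-GTC-1-5 had 98.7. All 33 genes had a median signal of 91.0, next to 120 for all 2053 bound genes of that list.

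By amino acid, the bound genes of replicate 2 were spread widely. A bound gene was present for 19 of 22 amino acid labels in the replicate 2 list, 16 in the larger list, 8 in the conservative list and 2, tyrosine and histidine, in the replicate 1 list. The labels with none in replicate 2 were histidine, selenocysteine and the initiator methionine, which together have 12 genes. Isoleucine had the largest share, 6 of 11 genes (54.5%, 23.4 to 83.3), and all 11 had a ranked peak in replicate 2, with signals of 23.2 to 71.7. In replicate 1, 2 of the 11 had a ranked peak. Of the 6 bound isoleucine genes 5 lie in a single cluster, so they are not independent.

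The other amino acids had at most 3 bound genes in the replicate 2 list, among them glycine with 3 of 20, alanine and proline with 3 of 17 each and glutamine with 3 of 12. Arginine, the label with most genes, had 2 of 26 (7.69%, 0.946 to 25.1). All 3 bound glutamine genes have the anticodon TTG, of which there are 4 genes, while none of the 8 with CTG was bound. Of these, tRNA:Gln-TTG-1-2 and tRNA:Gln-TTG-1-3 share 1 peak. A ranked peak of replicate 2 was near 3 of the 4 TTG genes and 6 of the 8 CTG genes. The 6 initiator methionine genes, whose tRNA starts translation, were not bound in any list, though 5 had a ranked peak in replicate 2, with signals of 8.14 to 44.6.

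**Figure D4:**
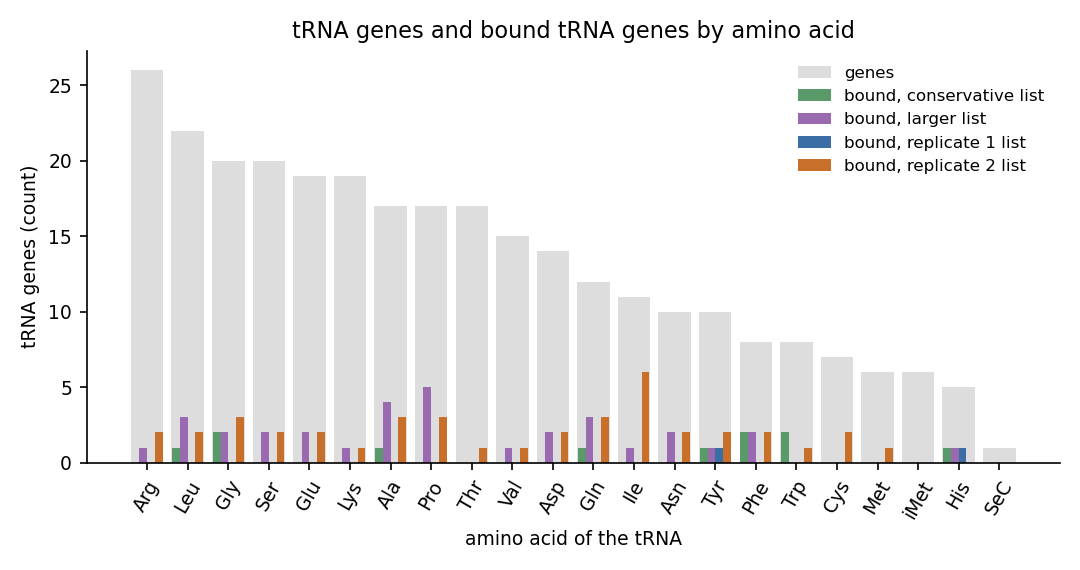
Number of tRNA genes by amino acid (grey) and number bound in each thresholded list (coloured bars). Isoleucine has 6 of 11 genes bound in the replicate 2 list, and most other amino acids have 1 to 3.

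tRNA genes were joined into clusters when neighbouring starts lay within 2000 bp. This gave 160 clusters, of which 91 were single genes and 69 held 2 to 7 genes, 199 genes in all. In the replicate 2 list 36 of the 199 clustered genes were bound (18.1%, 13 to 24.2) and 5 of the 91 single genes (5.49%, 1.81 to 12.4). Counted by cluster, 18 of 69 clusters with several genes and 5 of 91 single genes had a bound gene. A cluster with several genes offers several windows in which a summit can fall, and 1 summit can serve several genes, so these shares are not directly comparable. In the larger list the gene shares were 13.1% and 7.69%, and in the conservative list 4.52% and 2.20%.

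The 41 genes bound in the replicate 2 list, through 26 peaks, lay in 23 of the 160 clusters. In that list 137 clusters had no bound gene, 9 had 1, 12 had 2, 1 had 3 and 1 had 5. The cluster with 5 lies on chromosome 2R from 13430282 to 13432794 and holds 5 isoleucine genes of 1 sequence, tRNA:Ile-AAT-1-3 to tRNA:Ile-AAT-1-7, and 2 leucine genes. Its isoleucine genes were all bound in replicate 2, through 3 peaks with signals of 47.2, 47.3 and 50.6. In the larger list tRNA:Ile-AAT-1-4 and tRNA:Leu-CAA-2-1 were bound, through 1 peak of 44.3. A stronger peak of the larger list, of 87.6, lay just outside the window, 262 bp from the start of tRNA:Ile-AAT-1-3. Within 250 bp of the 7 starts the conservative and replicate 1 lists had no peak, and replicate 1 had no ranked peak. The nearest protein-coding starts belong to ATP8A and CG30065 and lie 360 to 1390 bp from the tRNA starts.

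The cluster with 3 bound genes lies on chromosome 3R from 17617761 to 17620216 and holds valine, proline and alanine genes. A single peak served tRNA:Ala-AGC-2-2, tRNA:Pro-TGG-1-2 and tRNA:Ala-AGC-2-3, with a signal of 59.5 in the replicate 2 list and of 77.8 in the larger list. A further 12 clusters had 2 bound genes each, the tyrosine cluster among them. In this cluster on chromosome 3R, tRNA:Tyr-GTA-1-6 was bound in replicate 2 beside tRNA:Tyr-GTA-1-8, with a signal of 51.6 against 373. The middle gene, tRNA:Tyr-GTA-1-7, had a ranked peak of 47.8 that missed the threshold. The peak of the outer gene was thus far above those of its neighbours. In replicate 2 it ran from 8669231 to 8669466, outside the gene and on the side of a CG8036 start. No copies among the 3 genes are identical, but tRNA:Tyr-GTA-1-6 and tRNA:Tyr-GTA-1-8, of 93 and 94 bp, differ only in the length of a run of A.

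**Figure D5:**
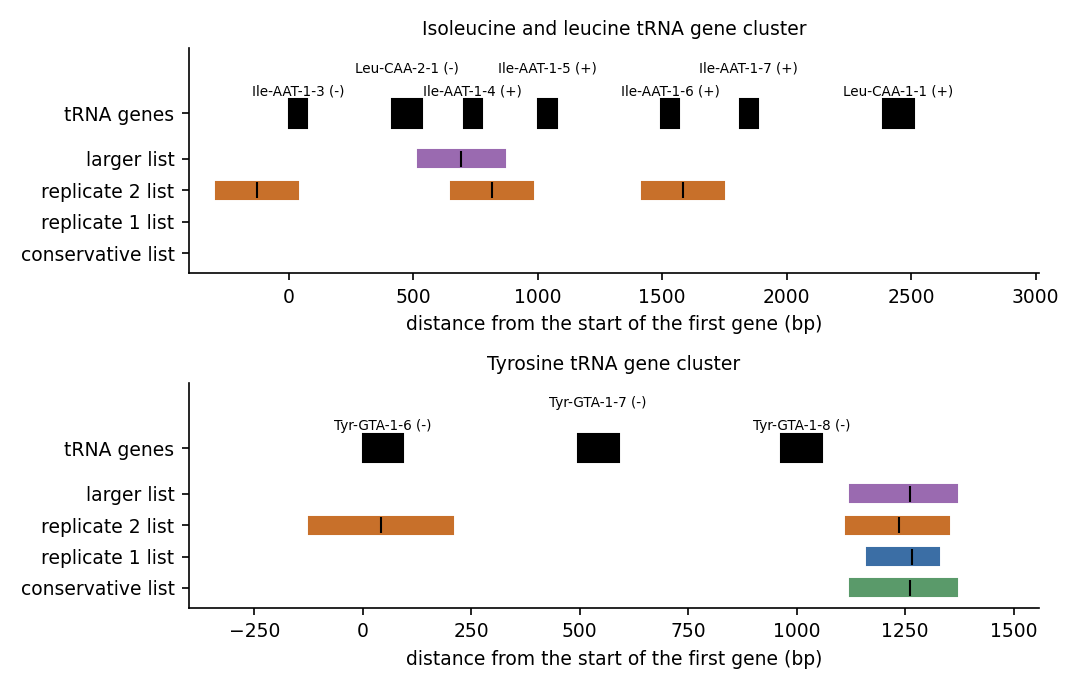
Maps of the isoleucine and leucine cluster (top) and the tyrosine cluster (bottom), by distance from the start of the first gene (bp). Black boxes are tRNA genes with their strand. Coloured boxes are the peaks of each thresholded list by which a tRNA gene was called bound, and ticks are summits. Other peaks are not drawn. The upper cluster has 3 drawn peaks in the replicate 2 list and 1 in the larger list. The right-hand tyrosine gene has a peak in all 4 lists.

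Larger clusters more often held a bound gene in the replicate 2 list: 5 of 91 single genes (5.49%), 15 of 62 clusters of 2 to 4 genes (24.2%) and 3 of 7 clusters of 5 or more (42.9%). The shares of their genes that were bound were 5.49%, 16.7% (11.2 to 23.5) and 23.3% (11.8 to 38.6). The last is 10 of 43 genes, through 5 peaks. Counted by gene, the other lists showed no such steady rise. In the larger list the gene shares were 7.69%, 13.5% and 11.6%, and in the conservative list 2.20%, 5.77% and 0%. A ranked peak of replicate 1 was near 36.3%, 32.1% and 23.3% of the genes. Counted by cluster, the share with a bound gene did rise in the larger list, at 7.69%, 21.0% and 28.6%. So did the share of clusters with a ranked peak of replicate 1, at 36.3%, 53.2% and 57.1%. In the conservative list the cluster shares were 2.20%, 9.68% and 0%. Not every large cluster held a bound gene. The 3 largest have 7 genes each. One is the isoleucine cluster. The next, on chromosome X from 14014814 to 14017284 with arginine and serine genes, had no bound gene and 3 genes with a ranked peak in each replicate. The last, on chromosome 2R from 19725620 to 19728958 with glutamate and initiator methionine genes, had no bound gene in any list, yet all 7 genes had a ranked peak in replicate 2, with signals of 23.9 to 61.7. These values overlap those of the bound isoleucine genes.

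Orientation of neighbours was recorded because 1 peak can serve both. Among pairs of neighbouring tRNA genes with starts within 500 bp, 7 of 19 divergent pairs (36.8%, 16.3 to 61.6), 7 of 51 pairs on the same strand (13.7%, 5.70 to 26.3) and 1 of 18 convergent pairs (5.56%, 0.141 to 27.3) shared a peak in the replicate 2 list. The starts of divergent pairs are also closest, with a median spacing of 193 bp next to 301 bp and 334.5 bp, so spacing and orientation cannot be told apart here.

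Nearness to a protein-coding start was examined because 10.2% of protein-coding genes were bound in the conservative list. Of the 290 tRNA genes, 32 lie within 500 bp of a protein-coding TSS. In the conservative list 6 of these 32 were bound (18.8%, 7.21 to 36.4) and 5 of the other 258 (1.94%, 0.632 to 4.46). They were bound through 6 and 4 peaks, with the peak of tRNA:Gly-GCC-1-13 and tRNA:Trp-CCA-2-6 counted on both sides. Among the 6 genes, tRNA:Trp-CCA-2-2 and tRNA:Gly-GCC-1-9 have entries made from 1 peak of each replicate, so the genes are not independent. In the replicate 2 list the counts were 8 of 32 (25%, 11.5 to 43.4) and 33 of 258 (12.8%, 8.97 to 17.5), and both bound genes of the replicate 1 list were among the 32. More than 500 bp from a protein-coding start lay 33 of the 41 genes bound in replicate 2 (80.5%) and 5 of the 11 bound in the conservative list (45.5%), next to 258 of all 290 tRNA genes (89.0%). The share was lower among bound genes than among all tRNA genes in both lists, and the difference was not tested.

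These peaks were chosen for a summit near a tRNA start. A protein-coding TSS lay within 250 bp of the summit for 3 of 9 peaks of the conservative list, 2 of 22 of the larger list, 2 of 2 of replicate 1 and 0 of 26 of replicate 2. Among the 211 tRNA genes more than 1000 bp from a protein-coding TSS, 24 (11.4%, 7.43 to 16.5) were bound in replicate 2, 20 in the larger list, 4 in the conservative list and 0 in replicate 1. The 24 are 58.5% of the 41 genes bound in replicate 2, next to 72.8% of all tRNA genes at that distance.

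Position inside another gene and copy number were also compared. Of the 134 tRNA genes inside a protein-coding gene, 127 of them within introns alone, 20 (14.9%) were bound in the replicate 2 list, and of the 156 outside, 21 (13.5%). Of the 52 genes with a sequence of their own, 6 (11.5%, 4.35 to 23.4) were bound, and of the 238 with identical copies, 35 (14.7%, 10.5 to 19.9). The intervals overlap in both comparisons. In the conservative list 2 of the 134 genes inside (1.49%, 0.181 to 5.29) and 9 of the 156 outside (5.77%, 2.67 to 10.7) were bound. By copy number, the same list had 3 of the 52 and 8 of the 238, the 3 being the tyrosine, leucine and glutamine genes printed above. By chromosome arm, the replicate 2 list held 19 of 98 genes on 2R, 9 of 79 on 3R, 6 of 48 on 3L, 6 of 41 on 2L and 1 of 24 on X.

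Genes of the proteins that make and use tRNAs were examined as a setting for these values, from lists of gene symbols, and they are protein-coding genes of RNA polymerase II. In the conservative list 10.2% of all protein-coding genes were bound, a share inside the interval of each list. Of 21 genes of the RNA polymerase III machinery, 2 were bound (9.52%, 1.17 to 30.4), Brf (signal 232) and Bdp1 (212), both subunits of TFIIIB. Of 35 aminoacyl-tRNA synthetase genes, whose enzymes load tRNAs, 5 were bound (14.3%, 4.81 to 30.3), GluProRS (293), IleRS (258), SerRS (238), ProRS-m (141) and ArgRS (124). Of 36 genes listed for tRNA processing and modification, 8 were bound (22.2%, 10.1 to 39.2), led by Tcs5 (1339), RluA-1 (1035), Elp5 (954), Trmt6 (539) and Elp6 (277). One of the 8 is Nep1, which in the fly is the gene of neprilysin, a peptidase, and without it 7 of 35 were bound (interval 8.44% to 36.9%). In contrast to the tRNA genes, the counts in the thresholded lists of replicate 1 and replicate 2 were close, at 3 and 2, 6 and 6, and 7 and 7. Ranked peaks were near more of these genes in replicate 2. In replicate 1 and replicate 2 the counts were 9 and 15 of 21, 24 and 29 of 35, and 19 and 29 of 36. The stc gene itself was bound in the larger list (92.7) and the replicate 2 list (86.6), and in neither of the others.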

How the data were processed

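Whole-embryo ChIP-seq of eGFP-tagged stc gave 2 biological replicates, numbered in the labels. Peak positions are on dm6, per the labels. For the aligner and peak caller the sources used here give no name. Each replicate has a ranked and a thresholded peak list, and the series has 2 of each. The conservative list occurs whole in the ranked list made from both replicates. The inputs of the ranked list behind the larger list matched neither replicate. The signal of each peak and its score, a rescaled irreproducible discovery rate (IDR), were deposited by the authors, as was the −log10 IDR of ranked peaks. In the thresholded lists the highest IDR was 0.01, as tested on the ranked lists.

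Genes came from Ensembl BDGP6.54, release 115, and sequence from RefSeq Release 6. No peak ran past a chromosome end. The main chromosomes are X, 4 and the arms of 2 and 3, and all but chromosome 4 hold tRNA genes. A gene took the peak of highest signal within 250 bp of a TSS. Positions count from 1, and motifs were searched on both strands. Scripts used python 3.11.15, pandas 2.3.3 and scipy 1.17.1, and peak assignment was tested on simulated data. Named in the text are stc, all tRNA genes bound in the conservative or replicate 1 list, those of highest signal in the replicate 2 and larger lists, the clusters with most bound genes, the 3 largest clusters, and bound members of the protein lists. Of 23 symbols of polymerase III machinery 21 matched the annotation, and of 48 symbols of tRNA processing 36 did; the function of members was not checked, and Nep1 in that list is a name shared with neprilysin. The genes examined, the lists and the rules were chosen with earlier results of these data known. No test was made: there is 1 group, and genes are not replicates.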

Additional observations from a re-analysis of the deposited data

How the results depend on the processing

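Of 31 alternatives to the counts above, 7 stayed within 1.5 times of the reported value and 24 did not, so the counts depend on the definition of bound. With the summit required within 100 bp, the conservative, larger, replicate 1 and replicate 2 lists had 4, 18, 1 and 24 bound tRNA genes. With any summit inside the gene they had 1, 7, 0 and 8. With an IDR of 0.001 or less they had 2, 11, 1 and 14. Counting genes with a ranked summit in both replicates, they had 6, 17, 2 and 17. Widening to 500 bp moved the replicate 1 count to 6. The replicate 2 count was above the replicate 1 count under each of these definitions.

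For the conservative list, leaving out one replicate, which leaves the other's own list, gave 2 to 41 bound genes: 2 without replicate 2 and 41 without replicate 1. The ranked list of both replicates at an IDR of 0.05 or less, with no region excluded, gave 19. Peaks overlapping both replicates' lists by 50% of the shorter peak gave 1, and by 25% gave 2. With a protein-coding TSS within 250 bp, 1 bound gene of the conservative list and 1 of the replicate 2 list were near one, and within 1000 bp 17 of the replicate 2 list were. The count of 23 clusters with a bound gene was the same for joining distances of 1000 and 5000 bp. The cause of these shifts was not tested. No paired analysis was possible because there is 1 group and no result comes from a test. Depth is unknown, and without control samples background cannot be measured. Leaving Nep1 out of the tRNA processing list, an alternative chosen after seeing the data, gave 7 bound genes in place of 8.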
